A study of Mus musculus with 4 samples.

Results

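Matrix metalloproteinases (MMPs) and their tissue inhibitors (TIMPs) were followed in brain endothelial cells with and without endothelial Pd1. The 10 genes were picked by name, the metalloproteinases Mmp25, Mmp17, Mmp14, Mmp15, Mmp2 and Mmp9 and the inhibitors Timp1, Timp2, Timp3 and Timp4, and all 10 were found among the 21578 genes of the deposited tables. Of these 10 genes, Mmp25 alone met the study's criterion for a changed gene, and it was higher in Pd1cKO-Tie2 cells. The RNA came from C57BL/6 mice at P0 (postnatal day 0), with 2 libraries from Pd1fl/fl mice, whose Pd1 gene is flanked by loxP sites but intact, and 2 from Pd1cKO-Tie2 mice, which carry the same floxed gene and in addition Tie2-Cre. Tie2-Cre deletes in endothelial cells and also in hematopoietic and some myeloid cells, so the knockout is not limited to the endothelium. Cells were labelled for CD31 and CD45 and purified by flow cytometry, and the methods describe plating of sorted cells without saying whether the sequenced RNA was taken before or after it. Whether each library came from 1 animal or from pooled animals was not given in the sources used here, so the p-values measure the spread between these libraries, which may be technical.

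MMPs are zinc-dependent enzymes that cut extracellular matrix and cell surface proteins, and they are made as inactive precursors that other proteases switch on. Some are secreted, such as the gelatinases Mmp2 and Mmp9, which digest denatured collagen and the type IV collagen of basement membranes. The membrane-type enzymes stay on the cell, either by a transmembrane segment (Mmp14, Mmp15) or by a GPI lipid anchor (Mmp17, Mmp25). TIMPs bind the active site of the enzymes and block it, and in brain vessels the balance of both bears on sprouting and on the integrity of the vessel wall.

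The libraries held between 13714374 and 24146115 counts, with the largest total in Pd1cKO-Tie2 library 1. Levels are given as CPM, counts set in proportion to the library size, after scaling by edgeR's TMM method. A gene without counts in a library may still be present up to a floor of 3 counts, at most 0.219 CPM here, a limit that covers counting error only. Pdcd1, the deleted gene, had 32 counts in Pd1fl/fl library 1 and 0 counts in each of the other libraries, too few to be tested or to check the genotype labels. The 10 endothelial markers, among them Pecam1, Cdh5 and Cldn5, were present in every library, with a summed level of 12863 to 13707 CPM in Pd1fl/fl and 16637 to 17347 CPM in Pd1cKO-Tie2 cells. Markers of other cells were present as well. Pd1fl/fl library 1 stood apart by its neutrophil markers, with a summed 925 CPM against 6.74 to 55.5 CPM in the other libraries. It also stood apart by the sum of its pericyte and smooth muscle markers, with 5535 CPM against 3575 to 3683 CPM. Most of that sum was Rgs5, named after its values were seen, at 4916 CPM against 3220 to 3279 CPM.

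Genes were compared by edgeR's quasi-likelihood test on the counts over the 15909 genes that passed its filter on low counts, and all 10 MMP and TIMP genes passed. The criterion asked for a difference of 2-fold or more together with an unadjusted p no larger than 0.05. This held for 1 of the 10 genes, against 4.02% of all tested genes in either direction and 1.41% in the direction of Mmp25. DESeq2 and limma-voom each put 1 of the 10 past it as well, Mmp25, against 4.34% and 3.17% of all their genes. By the Benjamini-Hochberg adjusted p of edgeR, 0% of all tested genes were called, and 6.39% had an unadjusted p under 0.05, while DESeq2 called 0.672% of the genes it adjusted. The libraries of the genotypes did not overlap for 3 of the 10 genes, Mmp25, Mmp2 and Mmp9, against 35.8% of all tested genes. Of these 3, 1 was higher and 2 were lower in Pd1cKO-Tie2 cells, against 17.7% and 18.1% of all tested genes. The median log2 fold change was 0.02 over the 10 genes, with 5 above 0 and 5 below, and -0.0038 over all tested genes.

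**Figure D1:**
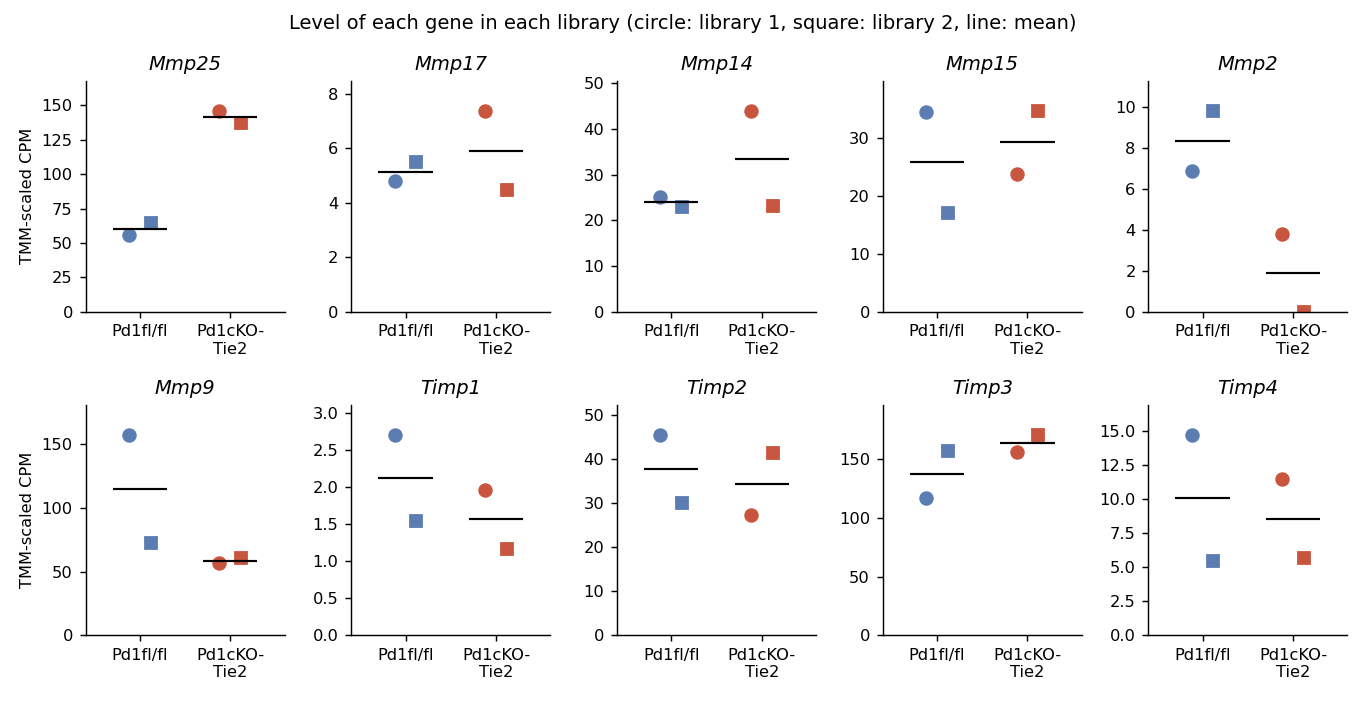
Level of each gene (TMM-scaled CPM, vertical axis from 0, with its own scale in each panel) in the 4 libraries, by genotype. Points are libraries and lines are means; the genotypes separate completely for Mmp25 (higher in Pd1cKO-Tie2) and for Mmp2 and Mmp9 (lower in Pd1cKO-Tie2) and overlap for the other 7 genes.

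Mmp25, also known as leukolysin, is a GPI-anchored enzyme first described in leukocytes. The gene (ENSMUSG00000023903) is listed on the minus strand of chromosome 17 from 23629458 to 23645269 (GRCm38). Its level was 55.8 and 64.6 CPM in the Pd1fl/fl libraries and 145.9 and 137.2 CPM in the Pd1cKO-Tie2 libraries. Both knockout libraries lay above both controls, and the means of 60.2 ± 6.19 CPM and 141.5 ± 6.16 CPM (SD, n = 2 libraries each) differed by far more than the libraries of a genotype did. The log2 fold change was 1.23 (SE 0.20, 95% interval 0.75 to 1.72), a 2.35-fold rise in 2 of 2 knockout libraries. The adjusted p was 0.735 by edgeR, 0.645 by limma-voom and 0.000944 by DESeq2, so that DESeq2 alone called it after adjustment, and over all alternatives the adjusted p ran from 0.000944 to 0.922. The study had singled out Mmp25 from these same libraries, so its p is not independent evidence of the direction. The rise met the criterion in each of the 11 alternatives, with log2 fold changes of 1.13 to 1.34 when 1 library was left out and 1.17 to 1.24 under other tests, scalings and filters.

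The endothelial markers were also higher in Pd1cKO-Tie2 cells, in 10 of 10 genes without overlap of the libraries, against 17.7% of all tested genes. Their median log2 fold change was 0.34, which is smaller than that of Mmp25. Set against 1000 CPM of summed endothelial markers, Mmp25 amounted to 4.07 and 5.02 CPM in Pd1fl/fl and to 8.77 and 7.91 CPM in Pd1cKO-Tie2 cells, without overlap of the genotypes. The 10 microglia and macrophage markers had a summed level of 2070 and 2541 CPM in Pd1fl/fl and 793 and 1764 CPM in Pd1cKO-Tie2 cells, with 10 of 10 log2 fold changes below 0. The summed level of the 9 neutrophil markers in the tables was highest in Pd1fl/fl library 1, in which Mmp25 was lowest. The part of any of these cell types in the Mmp25 difference was not tested.

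The coordinates of the 250 bases upstream of the RefSeq start of Mmp25 (GRCm38.p6, minus strand) are chr17:23645270-23645519. They are shown because Mmp25 is the gene of the group that met the criterion, with capitals marking each GC box (GGGCGG on either strand, the letters bound by Sp1-type factors).
Mmp25 promoter: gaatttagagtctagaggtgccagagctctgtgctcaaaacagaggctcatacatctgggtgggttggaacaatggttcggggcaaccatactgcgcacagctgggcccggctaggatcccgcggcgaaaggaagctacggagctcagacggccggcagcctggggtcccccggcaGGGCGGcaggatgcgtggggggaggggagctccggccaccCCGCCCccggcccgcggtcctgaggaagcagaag
The window held 2 GC boxes, 1 on each strand, and had a GC content of 66.0%, against a median of 52.4% over 32851 RefSeq promoters of the same length. A GC box lay in 6 of the 7 members found in the RefSeq table, Mmp14, Mmp15, Mmp25, Timp1, Timp2 and Timp3 but not Timp4, and in 32.7% of all promoters. The letters of an AP-1 site (TGANTCA, both strands), often named for inducible MMP genes, matched in none of the 7 windows and in 6.75% of all promoters. Mmp2, Mmp9 and Mmp17 were not among the entries used.

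Mmp17, the other GPI-anchored enzyme, was the lowest of the 10 genes per kilobase of exon. It had 4.79 and 5.49 CPM in Pd1fl/fl and 7.37 and 4.47 CPM in Pd1cKO-Tie2 libraries. The control values lay within the range of the knockout values. The log2 fold change was 0.20 (SE 0.70, 95% interval -1.54 to 1.94), and it fell to -0.20 without Pd1cKO-Tie2 library 1. The interval holds changes of more than 2-fold in either direction, so a change as large as that of Mmp25 was not detectable here.

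Among the transmembrane enzymes, Mmp14 is the main activator of the Mmp2 precursor at the cell surface. Mmp14 had 25.1 and 23.0 CPM in Pd1fl/fl and 43.9 and 23.1 CPM in Pd1cKO-Tie2 libraries. Library 1 alone stood out, while library 2 of the knockout lay between the controls. The log2 fold change of 0.48 (SE 0.39, edgeR adjusted p = 0.991) turned to -0.053 without Pd1cKO-Tie2 library 1. Mmp15, a close relative that is also anchored by a transmembrane segment, had 34.5 and 17.1 CPM in Pd1fl/fl and 23.9 and 34.7 CPM in Pd1cKO-Tie2 libraries. The libraries of each genotype differed more than the means did, and the log2 fold change was 0.18 (SE 0.44), with -0.11 without Pd1cKO-Tie2 library 2 and -0.24 without Pd1fl/fl library 2. The 95% intervals, -0.50 to 1.46 for Mmp14 and -0.91 to 1.27 for Mmp15, exclude a 2-fold fall but not a 2-fold rise.

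The gelatinases were the pair whose knockout libraries both lay below both controls. Mmp9, the gelatinase of neutrophils and activated microglia and a known opener of the blood-brain barrier, had 157 and 72.2 CPM in Pd1fl/fl and 56.6 and 60.5 CPM in Pd1cKO-Tie2 libraries. The difference rested mostly on Pd1fl/fl library 1, while the Pd1cKO-Tie2 libraries were close to each other. The means were 114.6 ± 59.9 CPM and 58.6 ± 2.74 CPM (SD, n = 2 libraries each), a log2 fold change of -0.97 (SE 0.38, 95% interval -1.92 to -0.02) with an edgeR adjusted p of 0.760 (0.289 to 0.943 over the alternatives). The unadjusted p was under 0.05, but the 1.96-fold lower level was just short of the criterion. Mmp9 met the criterion with library size scaling, at -1.02, and without Pd1fl/fl library 2, at -1.42, whereas it was at -0.30 without Pd1fl/fl library 1.

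Pd1fl/fl library 1, with the highest Mmp9, was also the library rich in neutrophil markers. Ltf, which encodes the neutrophil granule protein lactoferrin and is named after its values were seen, had 3132 counts there and 0 in each of the other libraries. Of the 9 neutrophil markers, 0 were without a count in that library, against 4, 4 and 5 in Pd1fl/fl library 2 and in Pd1cKO-Tie2 libraries 1 and 2. Cxcr2 and Mpo, 2 of these markers that were also named after their values were seen, differed from Ltf. Cxcr2 was highest in Pd1fl/fl library 2, at 16.8 CPM against 11.3 CPM in Pd1fl/fl library 1. Mpo peaked at 168 CPM in Pd1fl/fl library 1, yet Pd1cKO-Tie2 library 1 (53.5 CPM) lay above Pd1fl/fl library 2 (23.9 CPM). The microglia and macrophage markers were lower in Pd1cKO-Tie2 cells, and set against 1000 CPM of their sum, Mmp9 amounted to 75.8 and 28.4 CPM in Pd1fl/fl and to 71.4 and 34.3 CPM in Pd1cKO-Tie2 libraries. The genotypes overlapped on this scale. Against the endothelial markers the values were 11.5 and 5.61 CPM per 1000 in Pd1fl/fl and 3.40 and 3.49 CPM per 1000 in Pd1cKO-Tie2 libraries, again without overlap. The part of either cell type in the Mmp9 difference was not tested, and in such bulk libraries fewer cells of a type and less RNA per cell cannot be told apart.

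**Figure D2:**
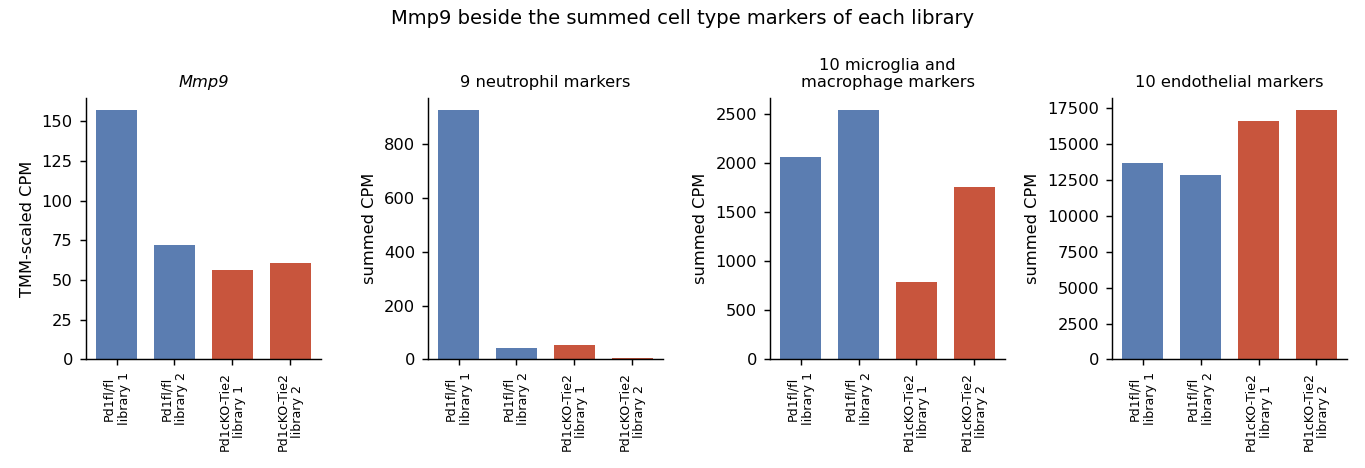
Level of Mmp9 (TMM-scaled CPM) and summed levels (CPM) of 9 neutrophil, 10 microglia and macrophage, and 10 endothelial markers in each of the 4 libraries; bars are single libraries and start at 0. Pd1fl/fl library 1 has both the highest Mmp9 and by far the highest neutrophil sum, while the endothelial sum is higher in both Pd1cKO-Tie2 libraries.

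Mmp2 had 6.87 and 9.79 CPM in Pd1fl/fl and 3.81 and 0 CPM in Pd1cKO-Tie2 libraries, from 99, 139, 91 and 0 counts. Both knockout libraries were lower than both controls, and in Pd1cKO-Tie2 library 2 the gene was not detected. The log2 fold change was -2.11 with a wide error (SE 1.75, 95% interval -6.43 to 2.22, edgeR adjusted p = 0.991). Without Pd1cKO-Tie2 library 1 the gene met the criterion, where the knockout is then a single library at 0 and the fitted fold change is no bound. Fibroblasts of the meninges are a known source of Mmp2, and the 6 fibroblast markers in the tables summed to 126, 47.3, 87.5 and 96.0 CPM in the 4 libraries, in the same order. Their part in the Mmp2 level was not tested.

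**Figure D3:**
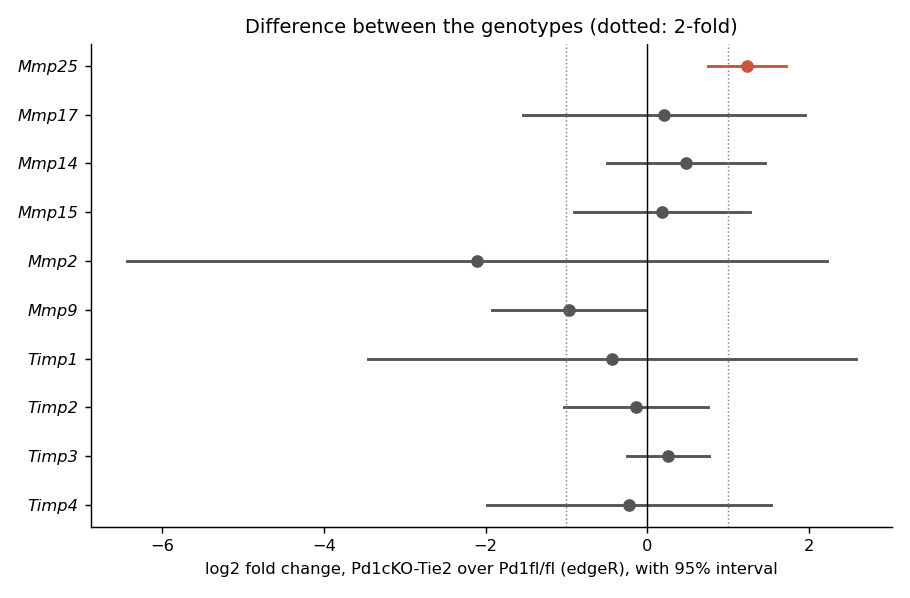
Log2 fold change of each gene, Pd1cKO-Tie2 over Pd1fl/fl, as points with 95% intervals from the edgeR fit; dotted lines mark a 2-fold change. The interval of Mmp25 lies wholly above 0 and that of Mmp9 wholly below, while the other 8 intervals span 0, the widest for the low genes Mmp2 and Timp1.

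The 4 inhibitors did not meet the criterion, and the libraries of the genotypes overlapped for each of them. Timp3, the inhibitor that is held in the matrix and also blocks VEGF receptor signalling, had 117.3 and 157.2 CPM in Pd1fl/fl and 156.4 and 170.8 CPM in Pd1cKO-Tie2 libraries. Pd1fl/fl library 1 was the lowest, and the other control lay level with Pd1cKO-Tie2 library 1. Its log2 fold change was 0.25 (SE 0.20, 95% interval -0.25 to 0.76, edgeR adjusted p = 0.987), an interval that excludes a 2-fold change in either direction. Per 1000 CPM of endothelial markers, Timp3 had 8.56 and 12.2 CPM in Pd1fl/fl and 9.40 and 9.85 CPM in Pd1cKO-Tie2 libraries.

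Timp2, which blocks MMPs and also bridges the Mmp2 precursor to Mmp14 for activation, had 45.5 and 30.1 CPM in Pd1fl/fl and 27.3 and 41.4 CPM in Pd1cKO-Tie2 libraries. Each genotype held 1 high and 1 low library. The log2 fold change was -0.14 (SE 0.36, 95% interval -1.03 to 0.75), with 0.13 without Pd1cKO-Tie2 library 1 and 0.19 without Pd1fl/fl library 1. Timp4, the TIMP with the most restricted tissue distribution, behaved likewise, with 14.7 and 5.42 CPM in Pd1fl/fl and 11.5 and 5.64 CPM in Pd1cKO-Tie2 libraries. Its log2 fold change was -0.23 (SE 0.71, 95% interval -1.99 to 1.52), with 0.19 without Pd1cKO-Tie2 library 2 and 0.66 without Pd1fl/fl library 1. Timp1, an inducible inhibitor that binds the Mmp9 precursor, was the scarcest inhibitor by counts, with control libraries at 39 and 22 counts and knockout libraries at 47 and 16. These equal 2.71, 1.55, 1.97 and 1.17 CPM, and the log2 fold change of -0.43 (SE 1.22) came to 0.021 without Pd1fl/fl library 1.

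Of the TIMP genes, 3 lie within introns or overlap the exons of a synapsin gene on the opposite strand, Timp1 in Syn1, Timp3 in Syn3 and Timp4 in Syn2 (GENCODE M21). Timp3 shared 1733 exon bases with Syn3, 21.3% of its exon length, and Timp4 shared 90 bases with Syn2, 1.53%, whereas Timp1 shared 0 with Syn1. The use of strand in the counting is not given in the sources used here, and without strand such reads cannot be told apart or assigned. Syn3 itself had only 86, 128, 184 and 50 counts, against 1691, 2231, 3736 and 2332 counts of Timp3 in the same libraries. Stretches of 50 bases shared in the same orientation with transcripts of other genes made up at most 0.648% of any of the 10 genes. That search left out overlaps on the opposite strand, such as that of Timp3 and Syn3.

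Per kilobase of exon, the scale on which genes can be compared, the highest mean levels over the 4 libraries were those of Mmp9 (24.5 CPM per kb), Mmp25 (19.0) and Timp3 (18.5). The ranges of these neighbours overlapped when the genotypes were pooled. Within the genotypes, Mmp9 was above Mmp25 per kilobase in both controls and below it in both knockout libraries. Timp2 followed at 9.26 CPM per kb, then Mmp15 at 5.11 and Mmp14 at 4.83, and the ranges of Timp3 and Timp2, of Timp2 and Mmp15 and of Mmp14 and Timp1 did not overlap. Timp1 (2.08), Timp4 (1.58), Mmp2 (1.52) and Mmp17 (0.835) were the lowest, each overlapping the next.

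The sum of the 6 MMP genes was 68.3 and 43.3 CPM per kb in Pd1fl/fl and 57.5 and 53.9 CPM per kb in Pd1cKO-Tie2 libraries, and the sum of the 4 TIMP genes was 31.6 and 29.7 against 30.4 and 33.9 CPM per kb. The ratio of both sums, 2.16 and 1.46 in Pd1fl/fl against 1.89 and 1.59 in Pd1cKO-Tie2 libraries, overlapped between the genotypes. The shares of Mmp25 and Mmp9 in the MMP sum did not overlap. Mmp25 made up 15.4% and 28.1% of it in Pd1fl/fl against 47.8% and 48.0% in Pd1cKO-Tie2 libraries, and Mmp9 made up 65.0% and 47.1% against 27.8% and 31.7%. Mmp9 was thus the largest contributor in both controls and Mmp25 in both knockout libraries, and the ratio of Mmp25 to Mmp9 per kilobase was 0.237 and 0.597 in Pd1fl/fl against 1.72 and 1.51 in Pd1cKO-Tie2 libraries. Timp3 was the largest part of the TIMP sum in each library, at 45.5% and 65.0% in Pd1fl/fl against 63.2% and 61.9% in Pd1cKO-Tie2 libraries. These sums and shares describe the libraries and were not tested.

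**Figure D4:**
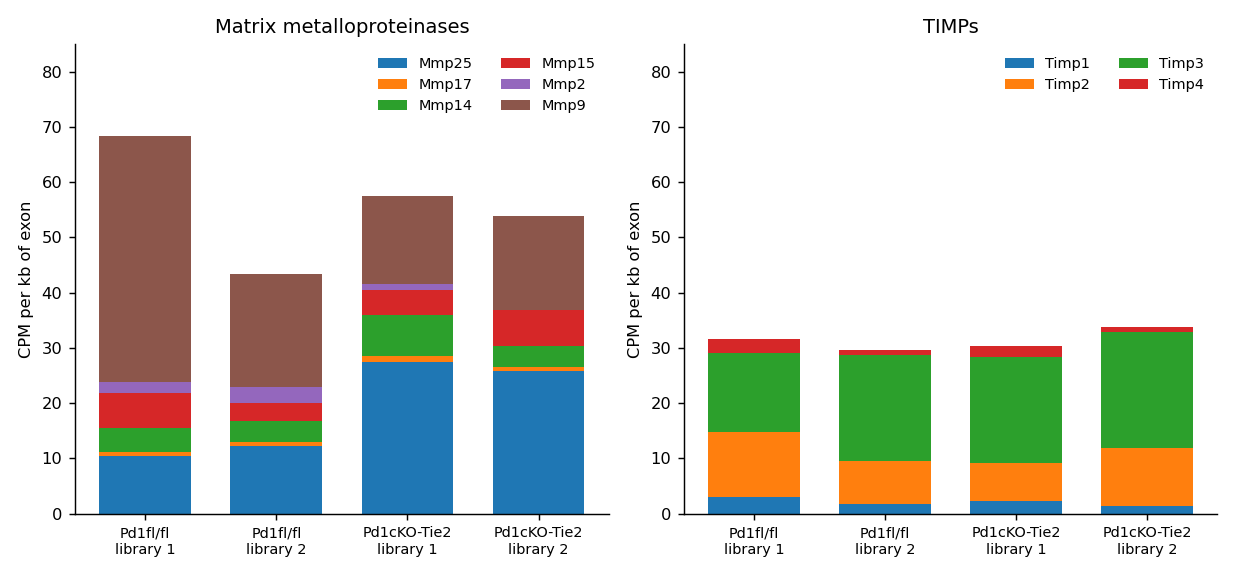
Stacked levels (CPM per kb of exon, from 0) of the 6 MMP genes (left) and the 4 TIMP genes (right) in each library. The TIMP stacks are of like height, at 29.7 to 33.9, while in the MMP stacks Mmp25 takes 47.8% and 48.0% in Pd1cKO-Tie2 against 15.4% and 28.1% in Pd1fl/fl libraries.

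The other genes of the system were taken from 3 lists of 50 genes, of which 40 were in the tables and 36 could be tested. Of these 36, 0 met the criterion as higher in Pd1cKO-Tie2 cells and 2 as lower, Spock1 and Cd44, against 1.41% and 2.61% of all tested genes. Of the 17 other MMP genes, 8 were in the tables and 7 were tested, and 0 of these met the criterion. Their log2 fold changes were all below 0, with a median of -1.08. The libraries did not overlap for 2 of the 7, Mmp16 and Mmp24, both lower in Pd1cKO-Tie2 cells. Of all tested genes, 18.1% lay apart as lower and 35.8% in either direction. Mmp8, the collagenase of neutrophils, had only 38, 11, 3 and 16 counts (SE 1.70). Mmp19, with 77, 0, 9 and 12 counts (SE 2.31), and Mmp21, with 8, 40, 18 and 1 counts (SE 1.79), were as uncertain. Mmp11 was at -0.11 (SE 0.67), so the shared sign is weak evidence of a common fall. The sum of the 8 listed genes was 48.1 and 49.8 CPM in Pd1fl/fl and 22.9 and 37.7 CPM in Pd1cKO-Tie2 libraries, lower in both knockout libraries, in which Mmp25 was higher.

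Mmp16, a transmembrane enzyme of neural cells, had 173 and 250 counts in the controls against 106 and 131 in the knockouts, or means of 14.8 ± 3.97 CPM and 7.02 ± 3.65 CPM (SD, n = 2 libraries each), a log2 fold change of -1.08 (SE 0.58, edgeR adjusted p = 0.908). Mmp24, another transmembrane enzyme known from neurons, had 3.47 and 4.58 CPM against 1.21 and 3.37 CPM (-0.81, SE 1.03). Neither met the criterion, although Mmp16 did so with limma-voom and without Pd1cKO-Tie2 library 2. The 8 neuron markers summed to 862 and 1275 CPM in Pd1fl/fl and to 1064 and 923 CPM in Pd1cKO-Tie2 libraries and overlapped. The 8 radial glia and astrocyte markers summed to 970 and 988 CPM against 679 and 547 CPM and did not overlap. These 8 were not uniform, since the libraries lay apart as lower for 4, as higher for 1, and overlapped for the rest. The criterion was met by 1 as lower and by 1 as higher, Hopx, which is named after its values were seen. Hopx rose from 0 and 0.0704 CPM to 15.0 and 3.15 CPM (log2 fold change 7.74, SE 1.62). The part of neurons, radial glia and astrocytes in the levels of Mmp16 and Mmp24 was not tested.

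Among the 20 genes for activators, other inhibitors and clearance, 17 were tested, with a median log2 fold change of -0.049. The libraries lay apart for 10, against 35.8% of all tested genes. Of these 10, 4 were higher and 6 lower, against 17.7% and 18.1% of all tested genes. Spock1, a secreted proteoglycan of the testican family that is made mainly by neurons, fell from 14.8 and 20.8 CPM in Pd1fl/fl to 3.77 and 3.37 CPM in Pd1cKO-Tie2 libraries (log2 fold change -2.32, SE 0.50, edgeR adjusted p = 0.735). Cd44, the hyaluronan receptor that docks Mmp9 at the cell surface, fell from 31.3 and 44.4 CPM to 18.4 and 13.0 CPM (-1.26, SE 0.36, edgeR adjusted p = 0.735). Both knockout libraries lay below both controls for each gene. Cd44 no longer met the criterion without Pd1cKO-Tie2 library 2 or without Pd1fl/fl library 2. The microglia and macrophage markers were lower in the same libraries, and their part in the fall of Cd44 was not tested.

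The broad inhibitor A2m had 14.4 and 6.27 CPM in Pd1fl/fl and 2.80 and 4.61 CPM in Pd1cKO-Tie2 libraries, a log2 fold change of -1.48 (SE 0.72, edgeR adjusted p = 0.873). Lrp1, the receptor that takes up MMP and inhibitor complexes, had 180.7 and 151.0 CPM against 86.3 and 108.3 CPM (-0.77, SE 0.21, edgeR adjusted p = 0.735), and Thbs1, a matrix protein that binds MMP precursors, had 35.2 and 51.0 CPM against 17.4 and 29.9 CPM (-0.87, SE 0.39, edgeR adjusted p = 0.839). These 3 genes missed the criterion, Lrp1 by its size alone, but A2m met it without Pd1fl/fl library 2 and Thbs1 without Pd1cKO-Tie2 library 2.

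The substrates of the enzymes, 13 genes for basement membrane and fibrillar matrix of which 12 were tested, had a median log2 fold change of 0.10, with 11 above 0 and 0 past the criterion. The libraries lay apart for 5, all higher in Pd1cKO-Tie2 cells, against 17.7% of all tested genes in that direction and 35.8% in either direction. Col4a2, a chain of type IV collagen, was named after its values were seen and had 1411 and 1261 CPM in Pd1fl/fl and 1737 and 1624 CPM in Pd1cKO-Tie2 libraries (log2 fold change 0.33, SE 0.11, edgeR adjusted p = 0.738). Its partner chain Col4a1 had 1165 and 1327 CPM against 1331 and 1259 CPM (0.06, SE 0.12). The median of the endothelial markers was 0.34, close to the difference of Col4a2 but not to that of Col4a1. The part of endothelial cells in the levels of both chains was not tested.

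The genes whose pattern over the 4 libraries was most like that of Mmp25 were sought by the root mean square distance of centred log2 CPM. The nearest were Tbx2, at 0.061, Sp100, at 0.079, and Zfp423, at 0.089, each over 4 libraries. Zfp423, a zinc finger transcription factor, had 33.4 and 35.1 CPM in Pd1fl/fl and 77.0 and 69.4 CPM in Pd1cKO-Tie2 libraries. Sp100, a nuclear body protein, had 10.4 and 11.2 CPM against 26.2 and 22.1 CPM. Tbx2, a T-box transcription factor, was near the lower end of detection with 11, 12, 47 and 25 counts. Zfp423 and Sp100 met the criterion, and Tbx2 did not. A fold change like that of Mmp25 was built into the choice of these genes, which used the same libraries. Meeting the criterion is therefore no separate result.

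**Figure D5:**
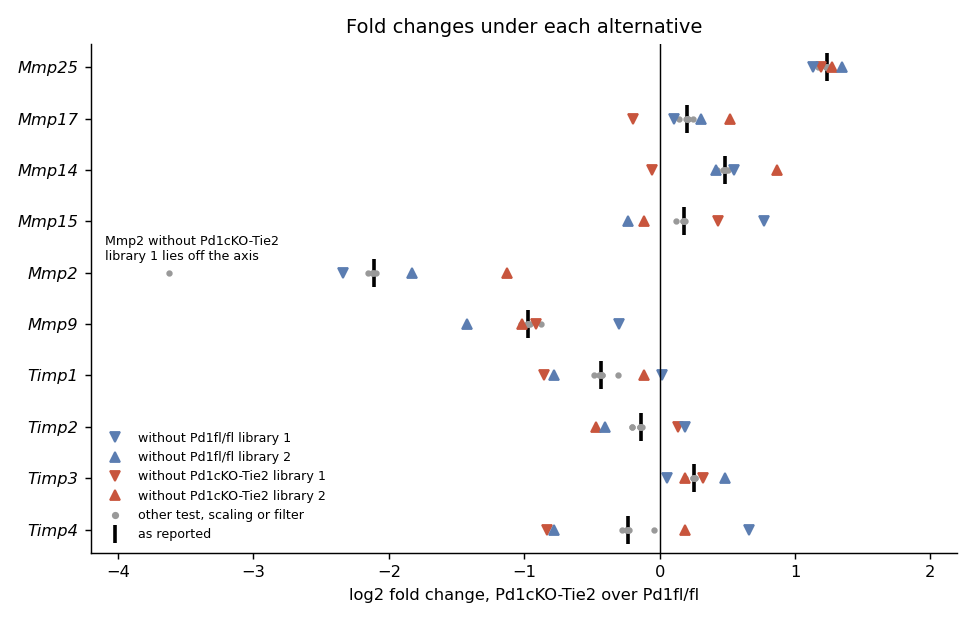
Log2 fold change of each gene, Pd1cKO-Tie2 over Pd1fl/fl, as reported (black bars), under other tests, scalings and filters (grey dots) and without each library in turn (triangles); 1 value of Mmp2, with a single knockout library at 0, lies off the axis. Mmp25 stays between 1.13 and 1.34, Mmp2, Mmp9 and Timp3 keep their sign, and the other 6 genes change sign when 1 library is left out.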

How the data were processed

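RNA of brain endothelial cells was sequenced on an Illumina platform, with 2 libraries per genotype, and the authors deposited 4 tables, each with 1 Pd1cKO-Tie2 and 1 Pd1fl/fl library. The values used were the deposited raw counts, whole reads per gene with no normalization by the authors. Columns of CPM and of the authors' own comparisons (fold changes, p-values) were not used. The submitters' processing notes name Bowtie2 2.2.3, TopHat2 2.0.12, HTSeq 0.6.0 and mm9, whereas the gene positions in the files are those of GRCm38, with 90.0% equal to GENCODE M21. Each library is in 2 tables, and 0 counts differed between them. A pair of tables held 5 unreadable lines each, which were passed over, and 23 gene symbols garbled into dates were recovered by identifier. Genes missing for a library were taken as 0. No sample label carries the number of the other Pd1cKO-Tie2 column, so only its genotype is known.

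The whole table of counts was fitted in edgeR 4.0.16 under R 4.3.3 (quasi-likelihood F test) with TMM scaling, filterByExpr and no covariate, and p-values were adjusted by Benjamini-Hochberg over 15909 genes. Across genes, the common coefficient of variation between libraries came to 0.610. Alternatives were DESeq2 1.42.0, limma-voom (limma 3.58.1), RLE, upper quartile and library size scaling, no filter beyond 1 count, at least 10 counts in every library, and leaving out each library. Exon lengths are the summed exons of GENCODE M21, and log2 CPM used a prior count of 2.

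The genes, the lists of other genes and the markers were chosen with earlier results of these data known. Other genes of the system were named where they met the criterion or their libraries did not overlap, up to 8 of 17, largest change first, of which 1 is not reported here, with the 3 genes nearest to Mmp25. Other genes are marked as named after their values were seen or only describe a list.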

Additional observations from a re-analysis of the deposited data

How the results depend on the processing

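The rise of Mmp25 stayed past the criterion in all 11 alternatives. The number of the 10 genes past the criterion was 1 as reported, 2 with library size scaling (Mmp25 and Mmp9), and 1 to 2 when 1 library was left out, with 2 without Pd1cKO-Tie2 library 1 (Mmp25 and Mmp2) and 2 without Pd1fl/fl library 2 (Mmp25 and Mmp9). The number of other genes of the system past the criterion was 2, and 2 to 4 when 1 library was left out, with 4 without Pd1fl/fl library 1 (Spock1, Cd44 and Col3a1 among them). Leaving out 1 library turned the sign of 6 genes, whose log2 fold changes then ranged from -0.053 to 0.87 for Mmp14 (below 0 without Pd1cKO-Tie2 library 1), -0.24 to 0.77 for Mmp15 (below 0 at -0.11 without Pd1cKO-Tie2 library 2 and at its lowest without Pd1fl/fl library 2), -0.20 to 0.52 for Mmp17 (below 0 without Pd1cKO-Tie2 library 1), -0.85 to 0.021 for Timp1 (above 0 without Pd1fl/fl library 1), -0.47 to 0.19 for Timp2 (above 0 at 0.13 without Pd1cKO-Tie2 library 1 and at its highest without Pd1fl/fl library 1) and -0.83 to 0.66 for Timp4 (above 0 at 0.19 without Pd1cKO-Tie2 library 2 and at its highest without Pd1fl/fl library 1). The cause was not tested. Where 1 library of a genotype was left, it was assumed to vary like the other genotype. Mmp2 gave no value with at least 10 counts in every library. No paired analysis was possible because the labels of the genotypes share only 1 replicate number. The intervals of Mmp17, Mmp2, Timp1 and Timp4, the lowest genes, span 2-fold changes in both directions, and an exact permutation test of 2 against 2 libraries cannot go below p = 0.333.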
